A study of Caenorhabditis elegans with 6 samples.

Results

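The insulin-like peptide genes of the nematode *Caenorhabditis elegans* were described in RNA-seq libraries of worms treated with JM03, a crotamiton derivative by the series title, and of control worms. A gene belonged to the family when the deposited table named it *daf-28* or *ins-* followed by a number, and 40 of the 46778 genes in the table did. There were 3 JM03 libraries and 3 control libraries, all of total RNA, grouped by their sample titles. The sources used here give no strain, stage, age, dose, vehicle or exposure time. They do not say whether replicates were separate cultures, so the spread behind each p-value is that between these samples and may be technical. Levels are in TPM (a length-scaled share of a library's transcripts), a scale meant for comparison between genes. How well it holds for short transcripts was not tested. TPM keeps no read depth, and the depth behind each value is unknown.

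Insulin-like peptides are small secreted hormones with the disulfide-bonded fold of insulin. In the worm they are made mainly by neurons and intestine and bind a single insulin-type receptor, DAF-2, which acts through a kinase cascade to keep the transcription factor DAF-16 out of the nucleus. Some peptides act as agonists of DAF-2 and others as antagonists, and through them food, crowding and pathogens influence dauer entry, growth, germ line proliferation, learning and lifespan. The animals were sequenced whole, so fewer cells of a type and less RNA per cell cannot be told apart.

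One library stood apart before any comparison. Control replicate 3 had Spearman correlations of 0.784 to 0.866 with the other libraries across tested genes, against 0.901 to 0.978 among the others, and it was the lowest of the 6 libraries for 64.7% of the 12912 tested genes. Among the 28 detected insulin-like genes it was the lowest for 12 (42.9%) and the highest for 5. The detected insulin-like genes have short transcripts, with a median of 430.5 nt and a range of 284 to 955 nt, against a median of 1267 nt over all tested genes. Values without control replicate 3 are given beside most fold changes, and its part in them beyond these values was not tested.

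Detection, set at 1 TPM or more in at least 3 libraries, was reached by 28 of the 40 genes, and 19 of these were at or above 1 TPM in all 6 libraries. No gene was detected through JM03 libraries alone or through control libraries alone. The number of family members above 0 was 32, 34 and 32 in the JM03 libraries and 32, 30 and 32 in the control libraries. Most were low: the median of the detected genes' mean levels was 4.33 TPM, where that of all tested genes was 14.7 TPM, and 6 genes averaged at least 10 TPM.

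The 12 genes below the limit were *ins-2*, *ins-9*, *ins-12*, *ins-13*, *ins-14*, *ins-15*, *ins-21*, *ins-25*, *ins-32*, *ins-33*, *ins-38* and *ins-39*. *ins-13*, *ins-21* and *ins-38*, which is annotated as a pseudogene, were listed at 0 in all 6 libraries. *ins-25* had the highest single value of these genes, 3.89 TPM in JM03 replicate 2, with 3.51 TPM in control replicate 3 and 0 in the other 4 libraries. *ins-2* was at 1.01, 0.37 and 1.94 TPM in JM03 and at 0.57, 0.22 and 0.17 TPM in control, which overlap. *ins-33*, which with *ins-3* promotes germ line proliferation in larvae, was at 0.22, 1.07 and 0.66 TPM in JM03 and at 0.12, 0.36 and 0.36 TPM in control. *ins-9*, *ins-15* and *ins-32* were listed at 0 in every control library and were at no more than 0.65, 0.35 and 0.93 TPM in any JM03 library. Each of them was also at 0 in some JM03 library. In the other direction, *ins-14* was at 0.15, 0 and 0 TPM in JM03 and at 0.35, 0.34 and 0.47 TPM in control. None of the 12 was tested.

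**Figure D1:**
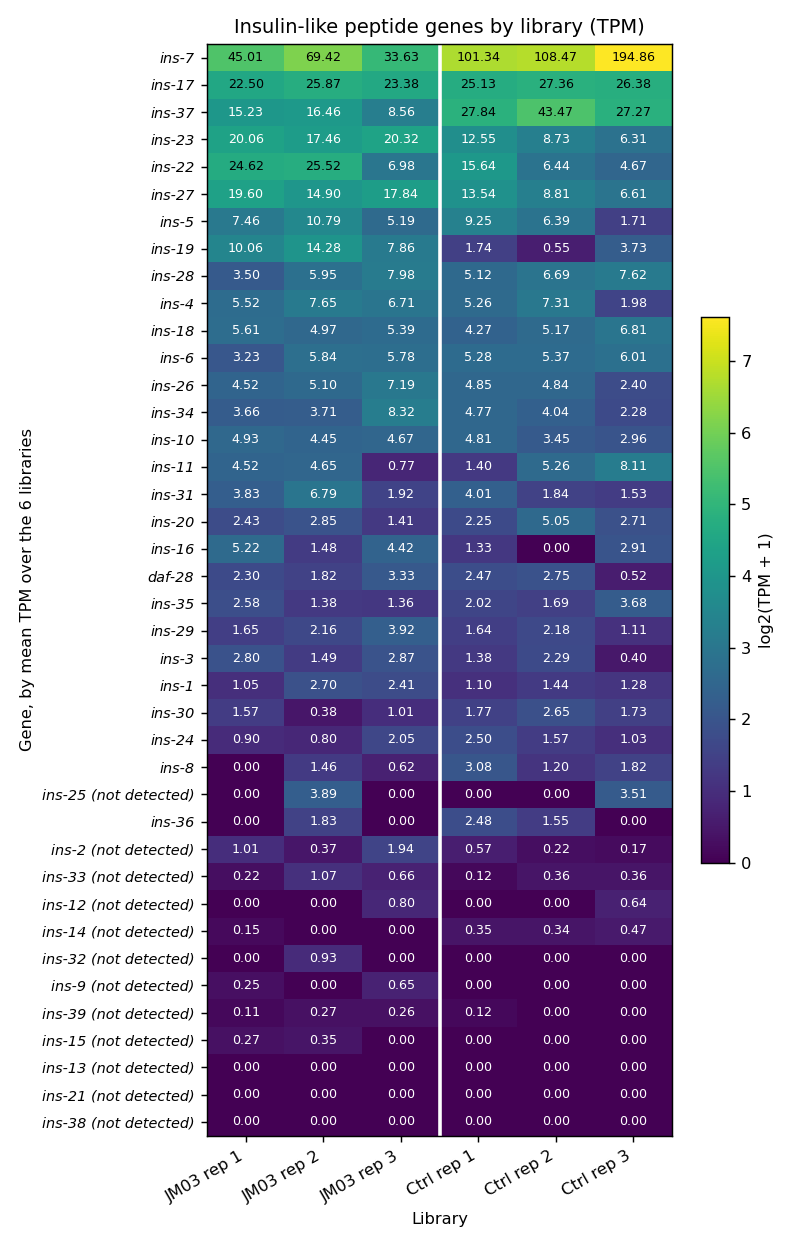
TPM of the 40 insulin-like peptide genes (rows, by mean over the 6 libraries) in each library (columns, JM03 left of Ctrl), with colour for log2(TPM + 1) and the TPM printed in each cell. *ins-7* is the highest gene in every library, and 12 genes marked as not detected fill most of the lower rows.

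A few genes carried most of the family's RNA. *ins-7* averaged 49.4 ± 18.3 TPM in JM03 and 135 ± 52.1 TPM in control (SD, n = 3 each) and was first in both groups. In JM03 it was followed by *ins-17* (23.9 ± 1.75 TPM), *ins-23* (19.3 ± 1.58), *ins-22* (19 ± 10.5), *ins-27* (17.4 ± 2.37), *ins-37* (13.4 ± 4.25) and *ins-19* (10.7 ± 3.26). The JM03 ranges of *ins-7*, *ins-17* and *ins-23* did not overlap each other, whereas *ins-22* spanned 6.98 to 25.52 TPM and overlapped all in this list but *ins-7*, and *ins-27*, *ins-37* and *ins-19* each overlapped the next. In control the order after *ins-7* was *ins-37* (32.9 ± 9.19 TPM), *ins-17* (26.3 ± 1.12), *ins-27* (9.65 ± 3.54), *ins-23* (9.20 ± 3.15) and *ins-22* (8.92 ± 5.89). *ins-37* and *ins-17* overlapped there, as did *ins-27*, *ins-23* and *ins-22*. By mean level *ins-19* ranked 7 of 40 in JM03 and 21 in control, and *ins-37* ranked 6 in JM03 and 2 in control.

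The summed level of all 40 genes was 226, 269 and 200 TPM in the JM03 libraries and 270, 277 and 334 TPM in the control libraries. Every JM03 sum lay below every control sum, though JM03 replicate 2 and control replicate 1 almost met. *ins-7* made up 19.9%, 25.8% and 16.8% of the sum in JM03 and 37.5%, 39.1% and 58.4% in control. Without *ins-7* the order turned, with 181, 200 and 167 TPM in JM03 and 169, 169 and 139 TPM in control, and the groups overlapped. With *ins-37* left out too, the sums were 166, 183 and 158 TPM in JM03 and 141, 126 and 111 TPM in control. Every JM03 sum then lay above every control sum, but both genes were left out with their lower JM03 values known.

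**Figure D2:**
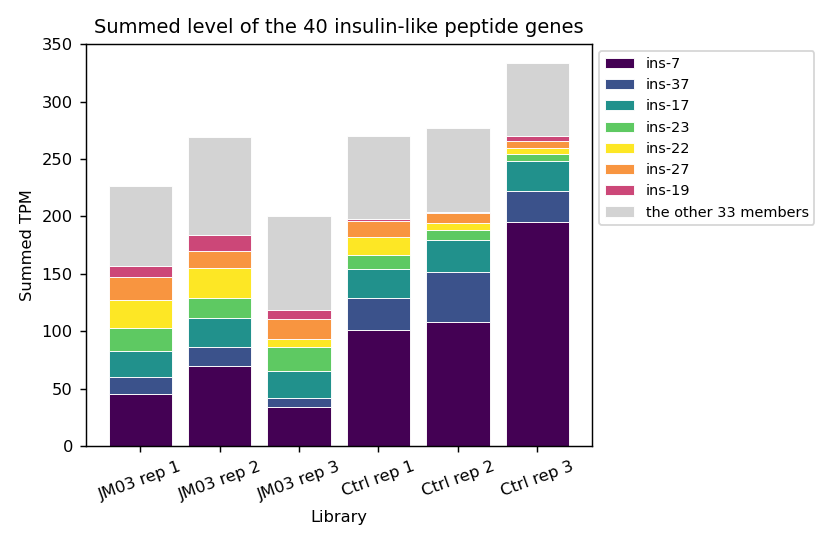
Summed TPM of the 40 insulin-like peptide genes in each library (bars, JM03 left of Ctrl), with the 7 genes of highest mean in JM03 coloured and the others in grey. The *ins-7* block is 33.63 to 69.42 TPM high in the JM03 bars and 101.34 to 194.86 TPM high in the control bars.

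JM03 was then set against control to ask which of these genes differed in treated worms. At a threshold of 0.05 on the limma Benjamini-Hochberg adjusted p over all tested genes, no detected insulin-like gene was called (0 of 28), where 17 of the 12912 genes were (0.132%). The lowest limma adjusted p in the family was 0.306, and 0.207 without control replicate 3, where again 0 of 28 were called and 17 of all genes were (0.132%). An unadjusted limma p below 0.05 was reached by 5 of the 28 (17.9%) and by 11.7% of all genes. The 5 were 3 with higher values in JM03 (*ins-19*, *ins-23* and *ins-27*, where 4.21% of all genes were of this kind) and 2 with lower values (*ins-7* and *ins-37*, where 7.54% were). Without control replicate 3 an unadjusted limma p below 0.05 was reached by 6 of the 28 (21.4%) and by 19.5% of all genes. A fit with array quality weights, which gives less weight to libraries that vary more, called 6 of the 28 (21.4%), but it also called 17.1% of all genes. Those 6 were the same 5 genes and *ins-16*.

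Fold changes moved in both directions across the family. Of the 28 genes 15 had a positive log2 fold change (53.6%) and 13 a negative one, where 72.7% of all tested genes had a positive one. Without control replicate 3 it was 14 and 14, with 56.5% of all tested genes positive. The median log2 fold change was 0.31 over the family and 0.35 over all tested genes, and 0.023 and 0.046 without control replicate 3, so the medians lay close together in both fits. In 6 of the 28 genes (21.4%) the JM03 and control libraries did not overlap, 3 with JM03 above (*ins-19*, *ins-23* and *ins-27*) and 3 with JM03 below (*ins-7*, *ins-37* and *ins-30*). Over all tested genes that share was 31.3%, with 21.9% above and 9.41% below. Log2 fold changes are those of TPM + 1, a scale that understates the change of low genes.

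**Figure D3:**
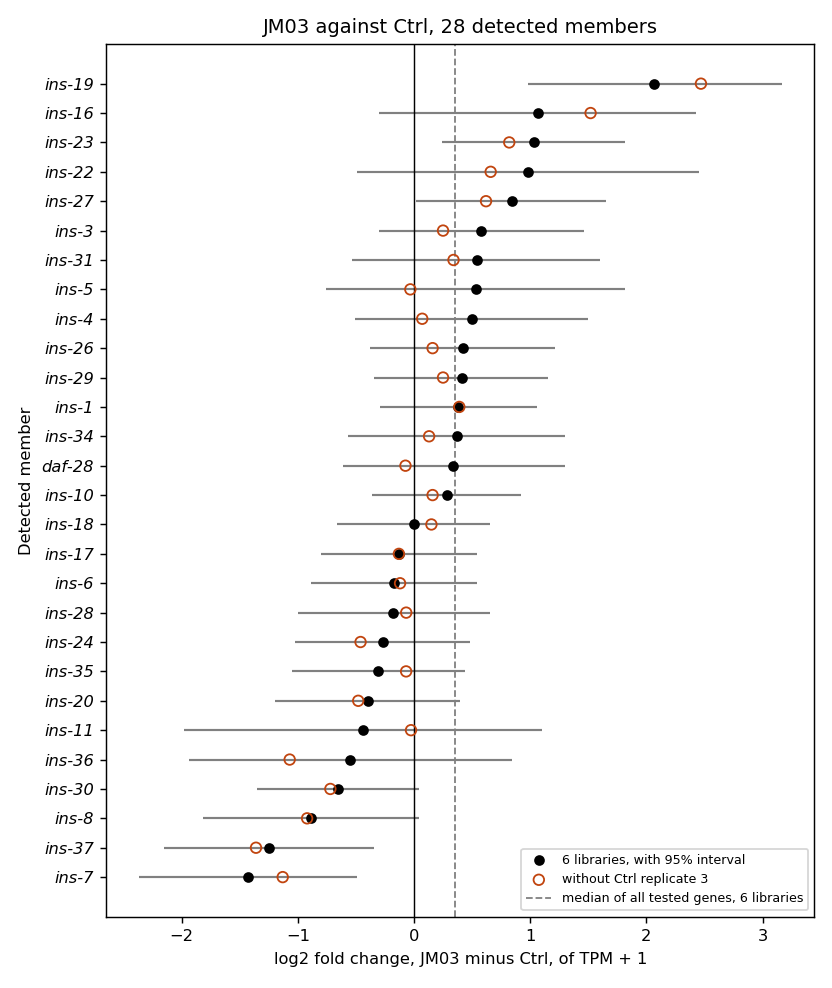
Log2 fold change of TPM + 1, JM03 minus Ctrl, for the 28 detected genes (rows). Filled points are the fit to 6 libraries with its 95% confidence interval, open points the fit without control replicate 3, and the dashed line the median of all tested genes (0.35). *ins-19* is at the top (2.07) and *ins-7* at the bottom (-1.43), and most intervals span 0.

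Among the agonists, *ins-7* (WBGene00002090, IV:9682011 to 9682845 in WBcel235) showed the most negative fold change of the family. *ins-7* is made in intestine and neurons, its transcription is held down by DAF-16, and its RNA interference is known to lengthen worm lifespan. It was at 45.01, 69.42 and 33.63 TPM in JM03 and at 101.34, 108.47 and 194.86 TPM in control. All JM03 libraries were below all control libraries, and control replicate 3 was far above the other controls. The ratio of the control mean to the JM03 mean was 2.73, and the log2 fold change was -1.43 ± 0.396 (SE; 95% interval -2.37 to -0.49; limma adjusted p = 0.306, unadjusted p = 0.00892). Without control replicate 3 it was -1.13 (limma adjusted p = 0.233), under array quality weights the gene was called (limma adjusted p = 0.0273), and over all alternative settings the adjusted p ran from 0.0273 to 0.72.

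The groups overlapped in *daf-28*, *ins-4*, *ins-3*, *ins-6* and *ins-35*. *daf-28*, a peptide of sensory neurons that opposes dauer entry, was at 2.30, 1.82 and 3.33 TPM in JM03 and at 2.47, 2.75 and 0.52 TPM in control. Its log2 fold change of 0.34 (95% interval -0.61 to 1.3; limma adjusted p = 0.592) turned to -0.073 without control replicate 3. *ins-4*, which acts with *daf-28* in sensory neurons, was at 5.52, 7.65 and 6.71 TPM in JM03 and at 5.26, 7.31 and 1.98 TPM in control. With control replicate 3 the lowest library, the log2 fold change was 0.50 (95% interval -0.51 to 1.5; limma adjusted p = 0.508), and without that library it was 0.071. *ins-3* was at 2.80, 1.49 and 2.87 TPM in JM03 and at 1.38, 2.29 and 0.40 TPM in control, again with control replicate 3 lowest, and the log2 fold change was 0.58 (95% interval -0.30 to 1.46; limma adjusted p = 0.49), or 0.25 without that library.

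*ins-6*, an agonist that promotes exit from dauer, was not low in control replicate 3. It was at 3.23, 5.84 and 5.78 TPM in JM03 and at 5.28, 5.37 and 6.01 TPM in control, where only JM03 replicate 1 lay apart. The log2 fold change was -0.17 (95% interval -0.89 to 0.54; limma adjusted p = 0.711), and -0.12 without control replicate 3. *ins-35*, an intestinal peptide that acts with *ins-7* against dauer arrest, was at 2.58, 1.38 and 1.36 TPM in JM03 and at 2.02, 1.69 and 3.68 TPM in control, with overlapping groups. It had a log2 fold change of -0.31 (limma adjusted p = 0.55), which was -0.068 without control replicate 3 and 0.16 under array quality weights.

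In *ins-17*, *ins-18* and *ins-1*, described as antagonists, the groups overlapped too. *ins-17*, whose peptide promotes dauer formation, was at 22.50, 25.87 and 23.38 TPM in JM03 and at 25.13, 27.36 and 26.38 TPM in control, a narrow band in all 6 libraries. The difference on the log2 scale was -0.13 (95% interval -0.80 to 0.54; limma adjusted p = 0.761), and the same without control replicate 3. *ins-18*, one of the peptides first described as an antagonist of DAF-2, was at 5.61, 4.97 and 5.39 TPM in JM03 and at 4.27, 5.17 and 6.81 TPM in control, with the JM03 values inside the control range. The log2 fold change was -0.0034 (95% interval -0.66 to 0.65; limma adjusted p = 0.994), and 0.15 without control replicate 3.

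*ins-1*, an antagonist from interneurons that takes part in salt learning, was at 1.05, 2.70 and 2.41 TPM in JM03 and at 1.10, 1.44 and 1.28 TPM in control. JM03 replicates 2 and 3 were above the controls and JM03 replicate 1 just below them, and the log2 fold change was 0.38 (95% interval -0.29 to 1.06; limma adjusted p = 0.492), and 0.39 without control replicate 3. *ins-11*, an intestinal peptide induced by pathogenic bacteria, was at 4.52, 4.65 and 0.77 TPM in JM03 and at 1.40, 5.26 and 8.11 TPM in control. Its values ranged widely within both groups, and its log2 fold change of -0.44 had a 95% interval of -1.98 to 1.1 (limma adjusted p = 0.665). It was -0.026 without control replicate 3 and 0.12 without JM03 replicate 3.

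**Figure D4:**
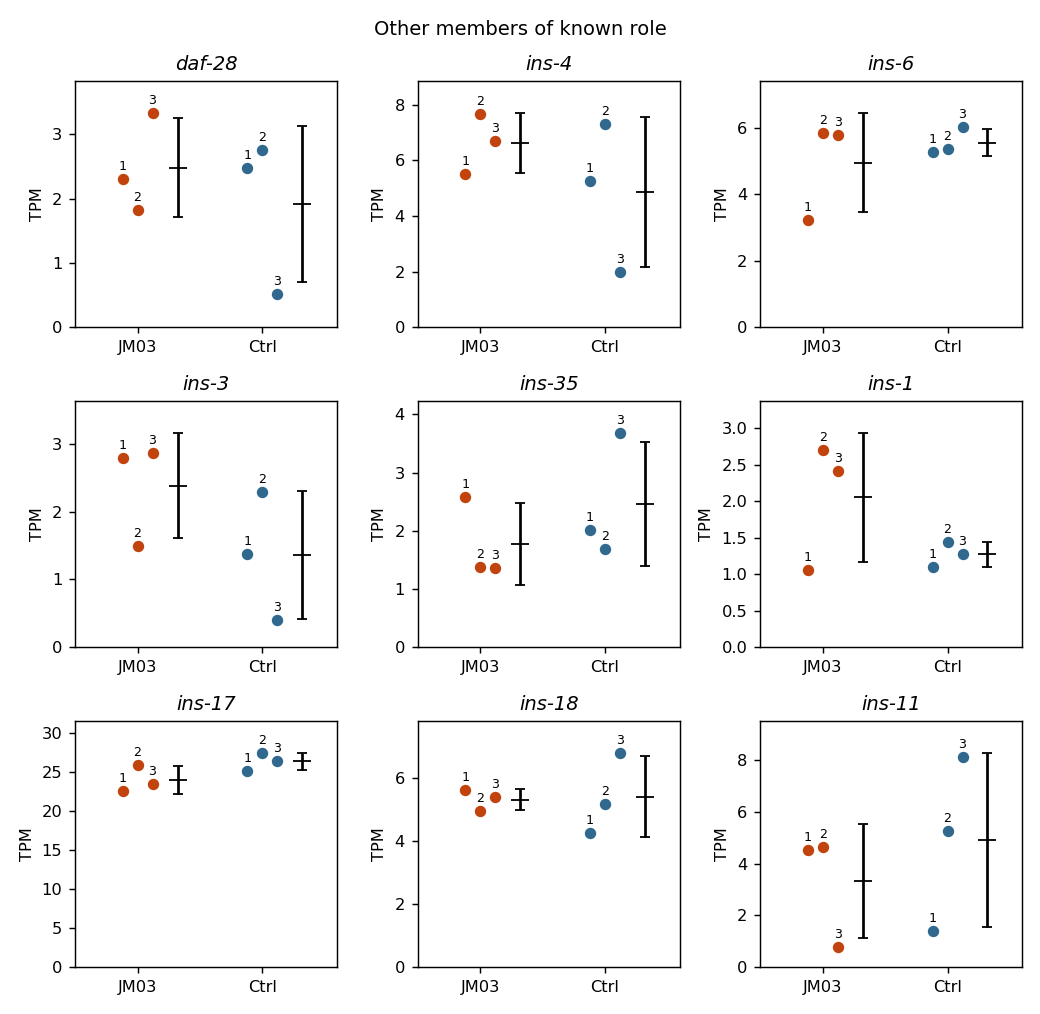
TPM of 9 further insulin-like genes with known roles in each library (points, numbered by replicate, JM03 left of Ctrl), with the group mean and SD beside them (n = 3 each). The groups overlap in every panel, and *daf-28*, *ins-4* and *ins-3* each have their lowest point in control replicate 3.

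The largest fold change of the family was that of *ins-19* (WBGene00002102, II:3126037 to 3126441). It was at 10.06, 14.28 and 7.86 TPM in JM03 and at 1.74, 0.55 and 3.73 TPM in control. All JM03 libraries were above all controls, and control replicate 3 was the highest control, so the difference was larger without it. The ratio of the JM03 mean to the control mean was 5.35, and the log2 fold change was 2.07 ± 0.461 (SE; 95% interval 0.98 to 3.17; limma adjusted p = 0.306, unadjusted p = 0.00296). It was 2.47 without control replicate 3 (limma adjusted p = 0.207) and the gene was called under array quality weights (limma adjusted p = 0.00578), with an adjusted p of 0.00578 to 0.72 over all alternative settings. Its neighbour *ins-31*, 600 bp away, was at 3.83, 6.79 and 1.92 TPM in JM03 and at 4.01, 1.84 and 1.53 TPM in control, which overlap (log2 fold change 0.54, or 0.34 without control replicate 3; limma adjusted p = 0.505 with the 6 libraries).

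*ins-22* and *ins-23*, annotated with *ins-21* within 4.95 kb of chromosome III, are named as alpha-type insulin-like peptides in the deposited table, a class set by the pattern of disulfide bonds. *ins-23* (WBGene00002106, III:10028247 to 10028697) was at 20.06, 17.46 and 20.32 TPM in JM03 and at 12.55, 8.73 and 6.31 TPM in control, with no overlap. Its log2 fold change was 1.03 ± 0.334 (SE; 95% interval 0.24 to 1.82; limma adjusted p = 0.316), and 0.82 without control replicate 3, its lowest library. Under array quality weights it was called (limma adjusted p = 0.0243, and 0.0243 to 0.72 over all alternative settings). *ins-22*, often tagged to follow dense core vesicles in worm neurons, was at 24.62, 25.52 and 6.98 TPM in JM03 and at 15.64, 6.44 and 4.67 TPM in control. JM03 replicate 3 fell within the controls, and the log2 fold change of 0.98 had a 95% interval of -0.49 to 2.45 (limma adjusted p = 0.49) and was 0.66 without control replicate 3.

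*ins-27* (WBGene00002110, I:14027236 to 14027588) was at 19.60, 14.90 and 17.84 TPM in JM03 and at 13.54, 8.81 and 6.61 TPM in control. The groups did not overlap, by a small gap, and control replicate 3 was lowest. The log2 fold change was 0.84 ± 0.346 (SE; 95% interval 0.017 to 1.65; limma adjusted p = 0.418), or 0.62 without control replicate 3, and it was called under array quality weights (limma adjusted p = 0.0312, and 0.0312 to 0.72 over all alternative settings). *ins-16* was at 5.22, 1.48 and 4.42 TPM in JM03 and at 1.33, 0 and 2.91 TPM in control, which overlap. Its log2 fold change was 1.07 ± 0.576 (SE; 95% interval -0.30 to 2.43; limma adjusted p = 0.479), with 0.53 without control replicate 2, 1.52 without control replicate 3 and 2.15 with a pseudocount of 0.1. Under array quality weights it was 2.02 and was called (limma adjusted p = 0.0353, and 0.0353 to 0.72 over the 13 alternative settings that tested the gene).

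*ins-37* (WBGene00002120, II:13835101 to 13836107) was at 15.23, 16.46 and 8.56 TPM in JM03 and at 27.84, 43.47 and 27.27 TPM in control. All JM03 libraries were below all controls, and control replicate 3 was close to control replicate 1. The ratio of the control mean to the JM03 mean was 2.45, and the log2 fold change was -1.25 ± 0.381 (SE; 95% interval -2.15 to -0.34; limma adjusted p = 0.306, unadjusted p = 0.0139). It was -1.36 without control replicate 3 (limma adjusted p = 0.233), and the gene was called under array quality weights (limma adjusted p = 0.0251, and 0.0251 to 0.72 over all alternative settings). Its exons overlap the small nuclear RNA gene F08G2.9 on the same strand, which was at 0, 0 and 11.24 TPM in JM03 and at 0, 0 and 49.80 TPM in control, and the opposite-strand non-coding RNA R05D7.8, at 0 in all libraries but control replicate 3 (5.55 TPM). Reads of overlapping genes may be shared between them, and the part of these genes in the *ins-37* values was not tested.

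*ins-30* (WBGene00002113), at 1.57, 0.38 and 1.01 TPM in JM03 and at 1.77, 2.65 and 1.73 TPM in control, was the least abundant of the 6 genes without overlap. The nearest libraries, JM03 replicate 1 and control replicate 3, differed by little, and the log2 fold change was -0.65 ± 0.292 (SE; 95% interval -1.35 to 0.043; limma adjusted p = 0.445), and -0.72 without control replicate 3.

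**Figure D5:**
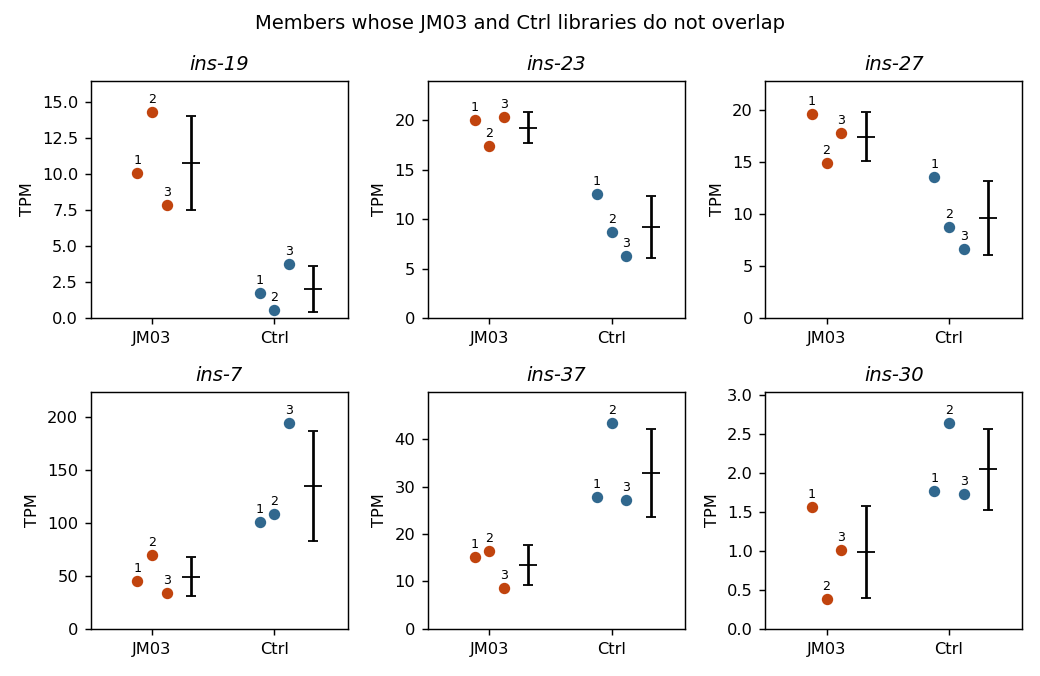
TPM of the 6 detected insulin-like genes whose JM03 and control libraries did not overlap, in each library (points, numbered by replicate, JM03 left of Ctrl), with the group mean and SD beside them (n = 3 each). *ins-19*, *ins-23* and *ins-27* have all JM03 points above the controls, and *ins-7*, *ins-37* and *ins-30* have them below.

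The family is grouped along the genome. With at most 1 protein-coding gene between neighbours, 24 of the 40 genes fell into 7 groups, and chromosome II alone held 16 genes. *ins-7* lies 1070 bp from *ins-8*, and both had negative fold changes. *ins-8* was at 0, 1.46 and 0.62 TPM in JM03 and at 3.08, 1.2 and 1.82 TPM in control, where JM03 replicate 2 overlapped the controls (log2 fold change -0.89, or -0.92 without control replicate 3; limma adjusted p = 0.438 with the 6 libraries). In the group of 7 on chromosome I (I:14012369 to 14037777), 6 genes were detected, 3 with positive and 3 with negative fold changes, from -0.65 in *ins-30* to 0.84 in *ins-27*. *ins-30* and *ins-27*, which did not overlap between groups in opposite directions, thus lie in 1 group that spans 25.4 kb, with *ins-24* between them. In the group of 6 on chromosome II (II:5988524 to 6011321), 5 were detected, 3 with positive and 2 with negative fold changes, from -0.40 in *ins-20* to 0.58 in *ins-3*. This group holds the agonists *ins-3*, *ins-4* and *ins-6*, and none of its detected members separated JM03 from control.

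Of the 6 genes named as beta-type in the table, *ins-2* to *ins-7*, 5 were detected, 3 with positive fold changes and 2 without control replicate 3. *ins-5* was the gene that turned, at 7.46, 10.79 and 5.19 TPM in JM03 and at 9.25, 6.39 and 1.71 TPM in control (log2 fold change 0.53 with the 6 libraries and -0.032 without control replicate 3; limma adjusted p = 0.551 and 0.962). The only gene named as gamma-type was *ins-11*. *ins-10* and *ins-34* overlap the more abundant genes *vps-39* and *nkcc-1* on the opposite strand. *ins-10* was at 4.93, 4.45 and 4.67 TPM in JM03 and at 4.81, 3.45 and 2.96 TPM in control, with a log2 fold change of 0.28 (limma adjusted p = 0.534), or 0.16 without control replicate 3. Since it is not given whether counting used strand, these values may hold reads of the neighbour. The detected genes not described singly, *ins-20*, *ins-24*, *ins-26*, *ins-28*, *ins-29*, *ins-34* and *ins-36*, all overlapped between groups and had log2 fold changes from -0.55 to 0.42 with limma adjusted p of 0.496 to 0.74, and from -1.07 to 0.25 without control replicate 3.

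The peptides are cut from precursors by proprotein convertases and released from dense core vesicles. Of 26 listed names for such genes, 24 were in the table under that name and 23 were tested, and 0 were called (3 had negative and 20 positive fold changes; without control replicate 3, 14 were positive). The convertase gene *kpc-1*, which is needed for DAF-28 processing, was at 19.53, 16.60 and 14.71 TPM in JM03 and at 20.61, 14.43 and 7.78 TPM in control. The convertase gene *egl-3* was at 22.42, 21.93 and 22.32 TPM in JM03 and at 19.82, 23.32 and 3.99 TPM in control, with control replicate 3 alone below the rest. The gene of smallest p in this list was *unc-18*, which encodes a vesicle fusion protein (log2 fold change 0.76, limma adjusted p = 0.481), and without control replicate 3 its fold change was 0.34. The list's median log2 fold change relative to all tested genes was 0.063, and -0.044 without control replicate 3.

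On the receiving side, all 15 listed genes of the DAF-2 pathway were tested and 0 were called. The receptor gene *daf-2* was at 28.76, 31.89 and 41.08 TPM in JM03 and at 25.10, 29.14 and 1.21 TPM in control, so its log2 fold change of 1.52 (limma adjusted p = 0.49) was 0.30 without control replicate 3. *daf-16* was at 71.73, 71.83 and 69.72 TPM in JM03 and at 71.61, 78.46 and 20.28 TPM in control, alike in both groups apart from that library. *daf-18*, which encodes the lipid phosphatase that opposes the cascade, had the smallest p of the list and was at 183.05, 170.43 and 192.97 TPM in JM03 and at 158.52, 139.89 and 20.88 TPM in control. Its log2 fold change of 1.21 (limma adjusted p = 0.49) was 0.29 without control replicate 3. The list's relative median was 0.19, and -0.017 without control replicate 3.

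Markers of the cells that make these peptides were read in the same libraries. Of all tested genes 72.7% had a positive fold change, and 56.5% without control replicate 3. Of 22 neuron markers 10 were tested, all with a positive fold change, 7 without control replicate 3, and 0 were called. Their summed level was 79.6 to 88.5 TPM in JM03 and 76.1, 75.8 and 21 TPM in control, where replicate 3 stood lowest, and the pan-neuronal *unc-119* was at 12.36 to 13.08 TPM in JM03 and at 3.98 to 10.86 TPM in control. Of 33 ciliated sensory neuron markers 7 were tested, 4 with a positive fold change (2 without control replicate 3), and 0 were called. The median log2 fold change of these markers relative to all tested genes was -0.10, and -0.18 without control replicate 3. With a filter at 5 TPM it was 0.16. In this list *str-2* was at 0 throughout. The sum of the ciliated sensory markers was 1239 to 1372 TPM in JM03 and 650 to 1463 TPM in control. It was almost all *daf-21*, a chaperone gene active in all cells. Of the 17 intestine markers 16 were tested, 15 with a positive fold change, also without control replicate 3, and 0 were called. The negative one was *mtl-2* (log2 fold change -0.29), and *pho-1* (-0.21) without control replicate 3. Array quality weights called 4 of the 16, against 17.1% of all genes. The list's median log2 fold change relative to all tested genes was 0.39, and 0.25 without control replicate 3. The intestine markers summed to 2444 to 3285 TPM in JM03 and to 1536 to 2741 TPM in control, with *asp-1* the largest part in each library. The transcription factor gene *elt-2* was at 3.34, 2.57 and 3.21 TPM in JM03 and at 2.91, 1.89 and 0.65 TPM in control, and the esterase gene *ges-1* at 10.28, 8.48 and 7.20 TPM in JM03 and at 6.82, 3.95 and 2.58 TPM in control.

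Germ line and epidermis markers were read likewise. Of 23 sperm markers 20 were tested, 19 with a negative fold change and all without control replicate 3, and they summed to 566 to 1127 TPM in JM03 and to 1518 to 2827 TPM in control. None was called over all genes (*ssp-9* had the smallest p, with a log2 fold change of -1.73, or -1.41 without control replicate 3, and a limma adjusted p of 0.306). An unadjusted limma p below 0.05 was reached by 14 of the 20, against 11.7% of all genes, and array quality weights called 17 of the 20, against 17.1% of all genes. Their median log2 fold change relative to all tested genes was -1.43, and -1.23 without control replicate 3. The 19 oocyte and embryo markers were all tested, with a positive fold change in each, and summed to 11993 to 14413 TPM in JM03 and to 4388 to 11617 TPM in control (0 called, and 8 under array quality weights). Of all tested genes 72.7% were positive too, and the list's relative median was 0.71, or 0.32 without control replicate 3. Of the 12 epidermis markers 7 were tested, 6 positive (5 without control replicate 3) and 0 called, with sums of 363 to 482 TPM in JM03 and 261 to 385 TPM in control. The largest part of each sum was *nlp-29*, at 251.19, 375.14 and 218.83 TPM in JM03 and at 272.26, 188.84 and 249.83 TPM in control. The genes of smallest p in the remaining marker lists were *syd-2* (neurons, log2 fold change 0.87), *gpa-4* (sensory neurons, 0.57), *pgp-1* (intestine, 0.75), *perm-2* (oocyte and embryo, 0.40) and *sqt-3* (epidermis, 1.41), with limma adjusted p of 0.354 to 0.481. Without control replicate 3 the log2 fold changes were 0.33 for *syd-2*, 0.29 for *gpa-4*, 0.59 for *pgp-1*, 0.44 for *perm-2* and 1.17 for *sqt-3*. *sqt-3* was high in JM03 replicate 3 alone, at 3.56, 2.34 and 20.69 TPM in JM03 and at 2.58, 1.64 and 0.87 TPM in control. The epidermis list's relative median was 0.78, with 0.23 without control replicate 3 and 0.19 without JM03 replicate 3. The part of these marker lists in the insulin-like values was not tested.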

How the data were processed

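The authors deposited 1 table of TPM values per gene for the 6 libraries. The unit was inferred from the values, whose column sums fall just short of that unit's total. The submitters' processing notes name fastp, HISAT, RSEM and build WBcel235, without versions. All 40 insulin-like genes were matched by gene ID to an Ensembl annotation of WBcel235, which gave coordinates and transcript lengths. The 12912 genes that reached 1 TPM in 3 or more libraries were analysed as log2(TPM + 1), a pseudocount of 1. The difference of JM03 and control was fitted with limma 3.58.1 (R 4.3.3) using a trended, robust prior and no pairing, and p-values were Benjamini-Hochberg adjusted over all tested genes. The step was run on simulated data with independent noise per gene and with changes only in more abundant genes. No simulated library stood apart as control replicate 3 did, so the run does not show how the step performs on these libraries.

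Members and gene lists were chosen with earlier results of these data known, so no list was tested as a set and no p was adjusted over the family alone. Every member may be named. Full statistics are given for members with an absolute log2 fold change of at least 1 or without overlap between groups, the most abundant and those of known role, and for each other list its gene of smallest p. *daf-2*, *daf-16*, *kpc-1*, *egl-3* and the markers named with values were added after their values were seen. The fold changes and adjusted p of *ins-5*, *ins-8*, *ins-10*, *ins-22*, *ins-31* and *ins-35* were also outside the plan, which gave such members by range and count. The fit was planned without pairing by replicate number. Deviations from the group means had correlations of -0.0203, 0.0795 and -0.146 between same-numbered replicates. Between differently numbered replicates they ran from -0.278 to 0.291.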

Additional observations from a re-analysis of the deposited data

How the results depend on the processing

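The family's call count of 0 held under 13 of the 14 alternative settings, namely quantile normalization, rescaling to protein-coding genes, no filter, a filter at 5 TPM, a non-robust prior, a pseudocount of 0.1, the replicate block and each omission of 1 library. Array quality weights gave 6 family calls (21.4% of 28) and 2202 over all genes (17.1%, where 17 or 0.132% were as reported). They gave 29 calls in the fixed lists (0 as reported), which were 17 of 20 sperm, 8 of 19 oocyte and embryo and 4 of 16 intestine markers. The cause was not tested. The replicate block gave 0 calls over all genes. Leaving out 1 library in turn gave 5 to 17 calls over all genes, with 5, 6 and 10 without JM03 replicates 1, 2 and 3 and 8 without control replicate 2. The mean summed level without *ins-7* was 183 TPM in JM03 and 159 TPM in control, against 232 and 294 TPM with it. The filter at 5 TPM tested 12 of the 28 genes. Fold changes kept their sign in every setting that tested them for 20 of the 28 genes, among them *ins-7*, *ins-16*, *ins-19*, *ins-23*, *ins-27*, *ins-30* and *ins-37*. With array quality weights the log2 fold changes of *daf-28*, *ins-4*, *ins-18* and *ins-35* reversed to -0.11, -0.11, 0.13 and 0.16. Over the omissions of 1 library each, log2 fold changes ran from -0.073 (without control replicate 3) to 0.58 for *daf-28*, from -0.032 (without control replicate 3) to 0.93 for *ins-5*, from -0.14 to 0.15 (without control replicate 3) for *ins-18*, which was 0.037 without JM03 replicate 2, from -0.29 to 0.057 (without JM03 replicate 1) for *ins-6*, from -0.40 to 0.094 (without JM03 replicate 1) for *ins-28*, and from -0.99 to 0.12 (without JM03 replicate 3) for *ins-11*. TPM keeps no depth, so what depth limits cannot be given.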
